A study of Mus musculus with 13 samples.

Results

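The sites described here are distal genomic regions that FLAG-tagged FOXL2 occupied in every FLAG library, with or without activin A, and at which neither H3K27ac nor SMAD2/3 had a peak in any library. The peaks of the 4 FLAG lists were merged where they overlapped by 1 bp, which gave 124781 FOXL2 regions. The sites were chosen by the presence or absence of peaks: a FOXL2 peak in all 4 FLAG lists, each over 1000 bp from an annotated gene start, and no overlap with any peak of the 4 H3K27ac or 4 SMAD2/3 lists. The rule kept 39484 regions, which were 31.6% of all merged FOXL2 regions and 67.6% of the 58444 regions found in all 4 FLAG libraries (95% Wilson interval 67.2 to 67.9%). They are called unacetylated constant sites below, where unacetylated means without a called H3K27ac peak and constant means called in all 4 lists, not of equal height.

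FOXL2 is a forkhead transcription factor of the ovary's granulosa cells and of pituitary gonadotropes, the cells that make the hormones FSH and LH. In gonadotropes it acts with SMAD proteins, which activin receptors activate, at genes such as Fshb, the gene of the FSH beta subunit. H3K27ac, acetylation of lysine 27 of histone H3, marks active promoters and enhancers. Forkhead factors bind a short core that is often written TGTTTAC, and some of them can bind DNA in closed chromatin.

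The cells were LβT2, a mouse gonadotrope line, stably transduced with a lentivirus that carries doxycycline-inducible FLAG-tagged mouse FoxL2 and a constitutive GFP. All groups carried this cassette and were induced for 48 h, so the FOXL2 measured is the tagged, introduced protein, and no group without it was included. After an equilibration of 2 h at 2% serum they received vehicle or 1 nM activin A, a ligand of the TGF-beta family, for 1 h before cross-linking. ChIP-seq for FLAG, H3K27ac and SMAD2/3 was done on 2 vehicle and 2 activin samples each, every sample pooled from 3 plates, and 1 Protein-A control was not analysed here. Nothing in the labels says that the duplicates came from separate experiments, so p-values measure the spread between these samples, which may be technical.

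The FLAG lists held 83834 to 97701 peaks, the H3K27ac lists 38995 to 41763 and the SMAD2/3 lists 144 to 7784. Vehicle 2 had the shortest FLAG list and stood apart from the activin libraries: the Pearson correlation of the sites' ranks was 0.665 and 0.697 between vehicle 2 and the activin libraries, 0.832 between the vehicle libraries and 0.917 between the activin libraries, all over the same 39484 sites. Of 12618 regions that met the rule except for 1 missing FLAG peak, 6389 lacked it in vehicle 2. The labelled cell type was checked by H3K27ac at RefSeq promoter windows. Cga, Lhb, Gnrhr, Foxl2, Lhx3, Gata2 and Isl1, 7 of the 8 gonadotrope markers with a window, were acetylated in all 4 H3K27ac libraries, and Fshb was acetylated in none. Of the markers with a window, 0 of 5 for other pituitary lineages, 0 of 2 for ovary, 0 of 2 for folliculostellate and stem cells, 0 of 2 for blood and endothelium and 0 of 2 for fibroblasts had a promoter peak of H3K27ac.

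Sequence could be read only where a site overlapped a RefSeq promoter window, which runs from 250 bp before to 50 bp after a start in build GRCm38.p6. This held for 100 sites, 0.253% of the total, at 107 windows, of which 70 belong to predicted genes with a Gm or LOC symbol. The deposited annotation, whose distances the rule used, places no start within 1000 bp of these sites, and most of the RefSeq starts there are of predicted genes. In 40 windows the summits of all 4 FLAG libraries lay inside the window. The 8 strongest of these with a summit upstream of the start are shown, since they are the DNA under FOXL2 at unacetylated sites. Each stretch runs up to 50 bp to either side of the median summit, without bases past the start or before the window's beginning, from 5′ to 3′ along the strand of the gene, and capitals mark matches to TGTTTNC on either strand.
Gm46422 (chr13:63094939-63095001, minus strand): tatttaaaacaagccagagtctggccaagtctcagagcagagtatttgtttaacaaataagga
Gm36231 (chr2:68845562-68845662, minus strand): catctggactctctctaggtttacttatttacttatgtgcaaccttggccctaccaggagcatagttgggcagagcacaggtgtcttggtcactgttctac
Cep170 (chr1:176807196-176807296, minus strand): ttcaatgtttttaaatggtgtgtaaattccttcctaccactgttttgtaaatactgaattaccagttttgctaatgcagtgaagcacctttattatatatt
AA387883 (chr19:52922963-52923063, plus strand): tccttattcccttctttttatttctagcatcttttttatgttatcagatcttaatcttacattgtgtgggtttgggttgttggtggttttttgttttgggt
Gm35959 (chr5:44231077-44231162, plus strand): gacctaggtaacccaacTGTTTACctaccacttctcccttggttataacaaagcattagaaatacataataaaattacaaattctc
Gm39092 (chr7:128367011-128367108, minus strand): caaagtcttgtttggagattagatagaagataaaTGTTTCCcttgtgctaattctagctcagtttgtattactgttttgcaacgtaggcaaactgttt
Gm30284 (chr17:86445018-86445118, minus strand): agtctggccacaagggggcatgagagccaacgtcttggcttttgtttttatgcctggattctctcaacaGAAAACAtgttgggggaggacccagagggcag
Gm31128 (chr13:64343832-64343932, minus strand): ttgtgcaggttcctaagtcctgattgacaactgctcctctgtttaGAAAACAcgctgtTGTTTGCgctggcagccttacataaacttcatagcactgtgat

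By their choice as the strongest, the 8 sites had high mean ranks, 75.1 to 90.1 on a scale where 100 is the strongest FOXL2 region. Of these stretches, 4 held a capitalised match and 4, those of Gm46422, Gm36231, Cep170 and AA387883, held none. At Gm31128 there were 2 matches, and the nearer one lay 2 bp from the median summit. The authors' fold enrichment there was 19.5 and 25.3 in vehicle and 17.1 and 18.8 in activin. At Gm35959 the single match was TGTTTAC itself, 30 bp from the summit, with fold enrichments of 20.4 and 14.6 in vehicle and 19.1 and 20.4 in activin. The stretch of Gm46422, cut at the window's beginning to 63 bp, had no match, and the folds there were 23.3 and 34 in vehicle and 21.5 and 22.7 in activin.

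Over the windows as a whole, TGTTTNC on either strand occurred in 48 of 107 (44.9%, 95% Wilson interval 35.8 to 54.3%) and in 21 of the 40 that held all 4 summits (52.5%, 37.5 to 67.1%). It occurred in 34.6% of 622 windows at the other constant FOXL2 regions and in 20.5% of 32544 distinct promoter windows of the same length. TGTTTAC, a subset of TGTTTNC, occurred in 7.48% of the sites' windows, 11.6% of the other FOXL2 windows and 3.66% of all windows. TGTTTGC, another subset, occurred in 14%, 4.5% and 5.08%. AGATAA, the core bound by GATA factors, occurred in 32.7% of the sites' windows against 11.2% of all windows, and TAATTA, a LIM homeodomain core, in 9.35% against 5.29%. The SMAD core CAGACA (19.6% against 20.9%), the E-box CAGCTG (14% against 16.4%), the AP-1 core TGANTCA (4.67% against 7.79%), the PITX core TAATCC (7.48% against 7.06%), the nuclear receptor core AAGGTCA (8.41% against 4.71%) and AGGGGGC, part of the CTCF motif (3.74% against 10.7%), were searched in the same way. The palindrome GTCTAGAC was found in 0 of 107 windows, which a Wilson interval bounds at 3.47%, and in 0.215% of all windows. GC content differed between the sets: it was 43.8% in the sites' windows, 53.1% at other constant FOXL2 regions and 53.9% in all windows. The part of base composition in these shares was not tested. None of these shares speaks for the sites outside promoter windows.

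Within the 40 windows, distances between motif matches and summits were measured. Among the 21 windows with a TGTTTNC match, the nearest one was a median of 22 bp from the summit, and it was within 50 bp in 17 and within 100 bp in 19. For AAGGTCA the median was 34.5 bp over 5 windows, with 3 within 50 bp. For AGATAA the median was 50.8 bp over 12 windows, with 6 within 50 bp. For CAGCTG it was 158 bp over 6 windows, with 1 within 50 bp. Motifs with more matches have a nearer match by number alone, and no test was made.

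FOXL2 enrichment at the unacetylated constant sites spanned the range from barely called to among the strongest in the genome. Their median fold enrichment, the authors' value per peak, was 9.33 in vehicle 1, 7.62 in vehicle 2, 9.31 in activin 1 and 8.77 in activin 2. Vehicle 2 was the lowest, and the treatments overlapped. In vehicle 1 all but the lowest and highest 5% of the sites lay between 4.33 and 27.9, and the highest reached 73. A fold of 20 or more was reached by 12.7%, 7.3%, 13.3% and 10.4% of the sites in the same order of libraries. Because the lists differ in length and in peak scores, regions were also ranked within each library by the authors' −log10 q-value among the 58444 constant regions, from 0 to 100. The sites' median rank was 46.3, 44.1, 46.9 and 45.9.

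Compared with distal constant regions acetylated in all 4 H3K27ac libraries and without SMAD2/3 (5194 regions), the order depended on the measure and the library. The median rank of the acetylated regions was 50.9 in vehicle 1, 58.2 in vehicle 2, 42.7 in activin 1 and 46.5 in activin 2, so the unacetylated sites ranked lower in 3 libraries and higher in activin 1. The mean difference was -3.81 rank points (SD 7.75, n = 4 libraries, exact sign-flip permutation p = 0.375, two-sided), within the spread between libraries. The part of vehicle 2 in it depended on how that library was left out. Over the other 3 libraries the mean was -0.381. Where vehicle 2 was left out of the choice and ranking of the regions as well, it was -4.15. By fold enrichment the order turned: the acetylated regions had medians of 8.11, 7.7, 6.95 and 7.1, and the unacetylated sites were higher in 3 of 4 libraries, by 1.29 on average (SD 1.03, exact permutation p = 0.25). Ranking by fold in place of the q-value gave a rank difference of 9.62.

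The unacetylated sites ranked below distal regions with partial acetylation and those at SMAD2/3 in every library. The 6547 regions with H3K27ac in only 1 to 3 libraries had median ranks of 61.5, 62.9, 57.1 and 58.3, which put the unacetylated sites lower by 10.2 to 18.8 points (mean -14.2, SD 3.71). The 5231 distal regions at SMAD2/3 peaks had 72.8, 75.3, 81.2 and 82.3, a mean difference of -32.1 (SD 4.3). Both contrasts had the smallest p that 4 libraries allow, an exact sign-flip p of 0.13 (0.158 adjusted over the 24 contrasts computed). The 24 include the distance to a start against promoter regions, which the rule itself fixes and which lowers the adjusted value. The 1988 constant regions within 1000 bp of a start had 38.5, 46.5, 38.5 and 43.4, a difference of 4.07 (SD 5.06, exact permutation p = 0.25), within the spread, and 0.581 with a distal limit of 2500 bp. By fold the unacetylated sites were above these regions in 4 of 4 libraries, by 1.45 on average (SD 0.675, exact permutation p = 0.13).

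**Figure D1:**
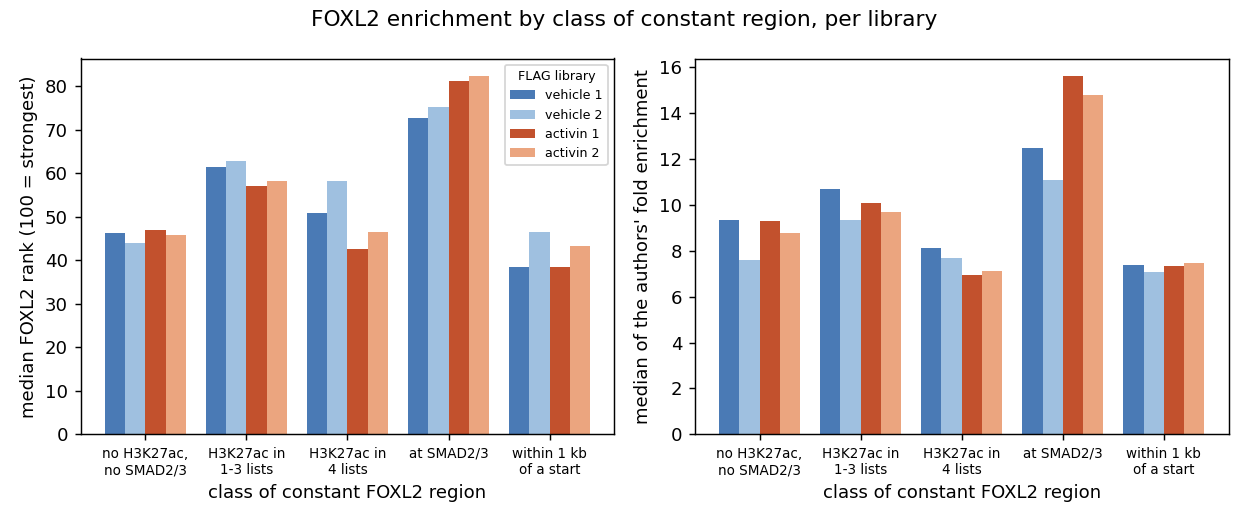
Median FOXL2 rank (left) and median of the authors' fold enrichment (right) of each class of constant FOXL2 region, 1 bar for each FLAG library. The unacetylated constant sites sit at ranks of 44.1 to 46.9, below regions at SMAD2/3 in every library, and above or below acetylated regions depending on library and measure.

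The share of unacetylated sites was lower among stronger constant regions. When the constant regions were split by mean rank into 10 bins of equal size, the weakest bin held 75.1% unacetylated distal sites (95% Wilson interval 74 to 76.2%). In the strongest bin the share was 44.6% (43.3 to 45.8%), which is still 2604 sites. Over the same range, the share of regions at SMAD2/3 went from 2.87% to 28.4%, while that of regions acetylated in all 4 libraries stayed between 8.04% and 9.53%. The intervals cover counting error alone, and neighbouring regions are not independent.

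**Figure D2:**
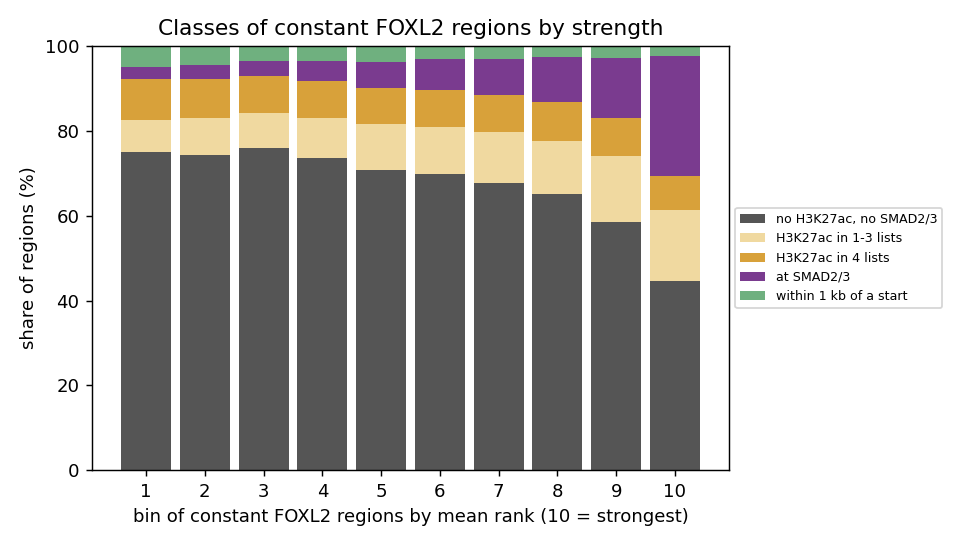
Share of each class among constant FOXL2 regions, in 10 bins of equal size by mean rank over the 4 FLAG libraries (10 is the strongest). Unacetylated distal sites make up 75.1% of the weakest bin and 44.6% of the strongest, where regions at SMAD2/3 reach 28.4%.

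Stronger sites were wider and had more tightly placed summits. Of 4 bins of sites by mean rank, in the lowest the median merged width was 343 bp and the summits of the 4 libraries spread over a median of 71 bp. In the highest, the width was 586 bp and the spread 42 bp. Over all sites the spread was 56 bp, and 44.8% of sites had all 4 summits within 50 bp. At acetylated regions the spread was 49 bp and this share 52.1%. At SMAD2/3 regions they were 44 bp and 57.9%.

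The 6 sites with the highest mean rank, all at 99.9, had folds of 32.7 to 72.2. The strongest, chr2:115766431-115767481, was annotated as intronic, 102 kb from the annotated start of Meis2, a homeobox factor of the TALE class, and inside the RefSeq gene BC052040. Its fold was 51.6 and 42.6 in vehicle and 38 and 32.7 in activin, and the nearest H3K27ac peak was 184 kb away. A site at chr1:116615030-116615944, 28.2 kb from Cntnap5a, had folds of 72.2 and 62.7 in vehicle and 59.4 and 56.1 in activin, and lay 105 kb from both H3K27ac and SMAD2/3. Cntnap5a encodes a contactin-associated adhesion protein. At chr17:92167013-92167573, 1031 kb from the nearest RefSeq protein-coding gene, Adcyap1, which encodes the neuropeptide PACAP, the folds were 56.4 and 44.5 in vehicle and 52.3 and 41.8 in activin. One intronic site of Neto1, which encodes an auxiliary subunit of glutamate receptors, had 55.5 and 47.4 in vehicle and 51 and 46.4 in activin. An intronic site of Cabin1, an inhibitor of calcineurin, at chr10:75756963-75757843 had 72.2 and 54.8 in vehicle and 57.4 and 52.2 in activin, with an H3K27ac peak only 9 bp from its edge. The sixth, chr6:15906413-15907615, lay 186 kb from the start of Mdfic and had 55.3 and 47.7 in vehicle and 60 and 47.6 in activin. The treatments overlapped at 4 of these, and at those near Meis2 and Cntnap5a both vehicle folds were above both activin folds.

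With activin, the median rank of the unacetylated sites differed by less than the spread between libraries. It was 45.2 ± 1.55 in vehicle and 46.4 ± 0.704 in activin (SD, n = 2 each), a difference of 1.18, with 0.58 for the pair numbered 1 and 1.78 for the pair numbered 2. It was 0.171 without vehicle 2 and 2.11 without vehicle 1. The exact permutation p was 0.667, two-sided, where 2 against 2 libraries cannot go below 0.33. Single sites moved both ways: at 10286 sites (26.1%) both activin ranks were above both vehicle ranks, and at 12106 (30.7%) both were below. Over all 58444 constant regions the shares were 26.1% higher and 33.1% lower, so the sites' shares are near the background, of which they are themselves the larger part. Ranks are relative within a library and show no genome-wide change.

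By class median, acetylated regions had the opposite direction. Their median rank was 50.9 and 58.2 in vehicle and 42.7 and 46.5 in activin, which is lower in both activin libraries, with a mean difference of -9.94 (exact permutation p = 0.33, the smallest possible). Of them 13.1% ranked higher and 47.7% lower with activin. The shift of a single region, its mean activin rank minus its mean vehicle rank, had a median of -7.28 in this class. At the unacetylated sites it was -1.07, so by this measure both classes were lower with activin. The gap between unacetylated and acetylated medians moved by 11.1 rank points towards the unacetylated sites (8.8 and 13.4 in the pairs), also with an exact p of 0.33, the smallest possible. Since a rank gained in 1 class is lost in another, and regions at SMAD2/3 gained 7.68, these shifts are not independent of each other.

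Of the 3 sites with the largest gain, 2 are given here, and both had low folds in vehicle. They were chosen for their values, which are a description. An intronic site of Ms4a14 at chr19:11304954-11305598 had folds of 5.76 and 4.04 in vehicle and 28.1 and 22.2 in activin. A site at chr1:146263421-146263817, 232 kb from Brinp3, had 6.64 and 2.88 in vehicle and 27.8 and 20.3 in activin, and the nearest SMAD2/3 peak lay 2.82 kb from it. At both the groups did not overlap, and the H3K27ac peaks were 32.2 and 231 kb away. Of the 3 with the largest loss, chr2:163636118-163636690, at the Serinc3 gene, had 7.44 and 6.61 in vehicle and 2.29 and 2.81 in activin, 28 bp from H3K27ac. A site at chr10:85272395-85272822, 87.6 kb from Cry1, the gene of a circadian repressor, had 15.1 and 15.1 in vehicle and 5.97 and 4.12 in activin. An intronic site of Rgs7, a regulator of G protein signalling, at chr1:175310515-175311078 had 14.8 and 13.5 in vehicle and 5 and 3.36 in activin.

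**Figure D3:**
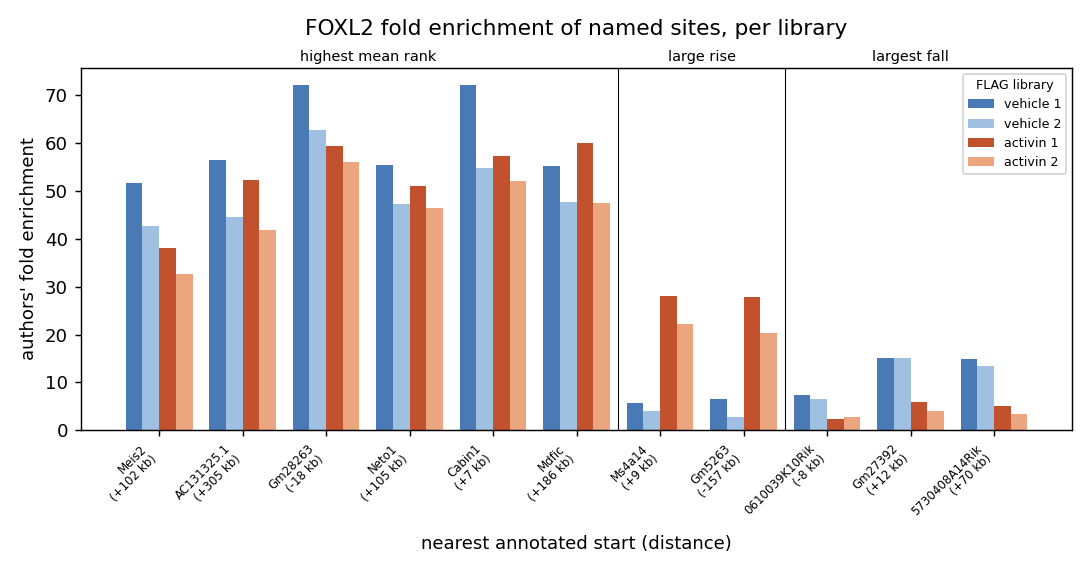
Authors' fold enrichment in each FLAG library at the 6 sites with the highest mean rank, at 2 of the 3 with the largest rise and at the 3 with the largest fall in rank with activin, labelled by the nearest annotated start and the distance to it. The strongest sites range from 32.7 to 72.2 in all libraries, and the rising and falling ones were chosen for groups that do not overlap.

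The unacetylated sites were mostly intronic or intergenic. In the deposited annotation 56.3% were intronic, 35.7% intergenic, about 3% exonic and 3.9% at transcript ends. Its promoter class held 1.15 to 1.17% of the sites, by library, and 3.97 to 4.1% of acetylated regions. Acetylated regions were 57.9% intronic and 32.3% intergenic, and those with H3K27ac in 1 to 3 libraries 62.5% and 28.5%. The median distance to a start was 25949 bp for the unacetylated sites and 19219 bp for acetylated regions, a difference of 6730 bp (SD 9.29, exact sign-flip p = 0.13, the smallest possible). These positions are nearly the same in each library, so the test speaks of the peak lists and not of 4 independent measurements. The nearest start belonged to a protein-coding gene at 49.7% of sites, to a processed pseudogene at 14.3% and to a lincRNA at 5.69%. Among acetylated regions the share for protein-coding genes was 53.4%. By chromosome, the unacetylated share of constant distal regions without SMAD2/3 ran from 72.1% on chromosome 19 to 80.3% on X.

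The rule keeps the sites from overlapping acetylated chromatin, and their distances to it varied widely. These distances were not compared with those of other positions in the genome. The median distance to the nearest H3K27ac peak was 14814 bp, with 7.8% of sites within 1 kb, 40.2% within 10 kb and 89.9% within 100 kb. The nearest SMAD2/3 peak was a median of 73184 bp away. At the edges of the rule, 720 sites lay 1 to 100 bp from an H3K27ac peak and had median ranks of 50.8, 52.2, 49.5 and 50.5, while 2791 regions left out for overlapping the peaks of 1 H3K27ac library had 59, 60, 58.6 and 59.5. At the distance limit, 131 sites at most 100 bp outside it had 45.2, 40.1, 47.1 and 45.2, and 100 regions left out and at most 100 bp inside it had 44.2, 41.6, 43.9 and 46.

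FOXL2 rank was flat with this distance up to 100 kb and lower beyond it, while the median fold took another course. In vehicle 1, vehicle 2, activin 1 and activin 2 the fold was 8.58, 7.47, 8.37 and 8 within 1 kb. At 50 to 100 kb it was 9.84, 7.82, 10.1 and 9.16, and beyond 500 kb 8.52, 6.19, 9.09 and 8.14. The mean of the 4 median ranks was 46.4 for the 3079 sites within 1 kb, between 46 and 46.9 in the bins up to 100 kb, 40.7 for the 3460 sites at 100 to 500 kb and 32.5 for the 541 sites farther than 500 kb. These 541 had median ranks of 32.3 and 22.6 in vehicle and 39.7 and 35.4 in activin. All 4 values are below those of the whole class, and vehicle 2 is the lowest. The activin minus vehicle difference was -1.1 within 1 kb, 0.777 at 10 to 50 kb, 4.76 at 100 to 500 kb and 10.1 beyond 500 kb. The exact permutation p was 0.33 for the nearest and for the farthest bin, the smallest possible, and 0.667 or 1 for the others. Without vehicle 2 these 4 values were -0.36, -0.395, 1.17 and 5.24, so the value at 10 to 50 kb changed sign and the others were smaller. Ranked higher in both activin libraries were 23.9% of the sites within 1 kb and 36.8% of those beyond 500 kb, and lower were 34.9% and 16.6%. The far sites were also more often intergenic, 72.5% against 28.8% within 1 kb. The part of vehicle 2 and of local background in this pattern was not tested.

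**Figure D4:**
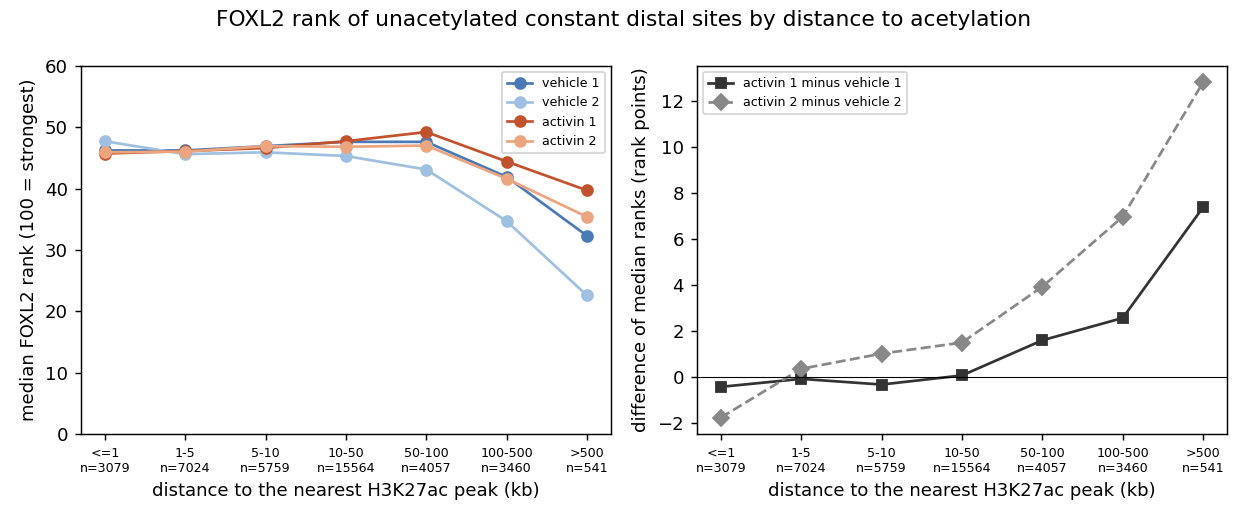
Left, median FOXL2 rank of the unacetylated constant sites in each FLAG library by distance to the nearest H3K27ac peak, with the number of sites in each bin. Right, the difference between activin and vehicle libraries of the same number; it reaches 7.37 and 12.8 rank points beyond 500 kb and lies between -1.77 and -0.434 within 1 kb.

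Sites were spread over the genome and also clustered. The median gap to the next site was 17560 bp, 36.6% of gaps were 10 kb or less and 2.21% were over 500 kb. The densest windows of 100 kb each held 22 sites and 1 other constant region. At chr12:73140009-73236544, over Mnat1, which encodes an assembly factor of the CDK-activating kinase, the sites' mean ranks ran from 6.08 to 99.4, with median folds of 9.14 and 8.19 in vehicle and 11.7 and 10 in activin. At chr17:10206354-10306370, over Qk, which encodes an RNA-binding splicing regulator, they ran from 5.88 to 99.2, with 7.55 and 5.75 in vehicle and 8.16 and 7.64 in activin. The nearest H3K27ac peaks were 0.695 and 2.04 kb from a site of these windows.

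The genes with the most sites were mostly large. Of 21900 RefSeq protein-coding genes, 28.1% had a site in the gene body and 63.3% had one in the body or within 50 kb of it. Ccser1, a large gene of little-known function, was the nearest annotated start of 105 sites and of 1 acetylated region, and its body of 1203 kb held 120 sites, or 99.8 per Mb, against 23.6 per Mb over all protein-coding genes. Next as nearest starts were Rbfox1, a neuronal splicing regulator, with 48, Pcdh17, a protocadherin, with 47, Agbl1, which encodes a carboxypeptidase, with 43, and Dlgap1, a postsynaptic scaffold protein, and Nxph1, which encodes neurexophilin 1, with 38 each. The others of the first 15 were Cstf2t (36), Unc5d (35), Pik3c3 (34), Ccdc50 (32), Ins1 (32), Cntn4 (31), Fgf12 (30), Lrrtm1 (30) and Cntnap5a (29). Ins1 and Cstf2t held 0 sites in their own short bodies. By gene body, a ranking added after the values were seen, Macrod2 held 100 sites with 1 acetylated region, Cntnap2, a contactin-associated adhesion gene, 88 with 4 and Dmd, the dystrophin gene, 74 with 7. Lrba, which encodes a vesicle-trafficking protein, held 56 with 0 acetylated.

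**Figure D5:**
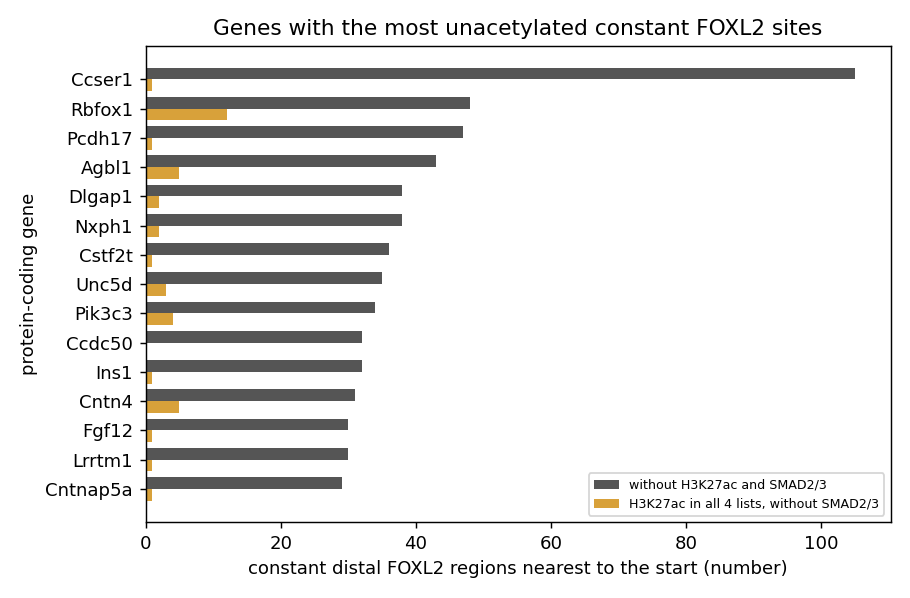
The 15 protein-coding genes that are the nearest annotated start of the most unacetylated constant sites, with the number of those sites (grey) and of constant distal regions acetylated in all 4 H3K27ac libraries without SMAD2/3 (orange). Ccser1 leads with 105 against 1, and Rbfox1 has the most acetylated regions of the 15, 12.

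The count of sites went with gene length. Sites were found in the bodies of 2.42% of genes of up to 10 kb and of 86.8% of the 227 genes over 500 kb. Their density was 6.26 per Mb in the shortest genes, 29.5 at 50 to 100 kb and 17.4 over 500 kb. A list of neuronal adhesion and synapse genes, of which 46 matched RefSeq symbols, held 869 sites in 42 of the 46 bodies, at 16.2 per Mb, near the value for all genes over 500 kb. Within the list, Cntn4, a contactin, held 72 sites with 19 acetylated regions, Opcml, an opioid-binding adhesion protein, 49 with 5 within 50 kb, Cntn5 36 and the netrin receptor gene Unc5d 15. Other long genes were nearly empty. Of those over 500 kb, 30 held 0 sites, and the 4 FLAG lists together had 2 peaks in the 1185 kb of Cdh13, which encodes T-cadherin, 3 in the 911 kb of Nlgn1, which encodes the postsynaptic adhesion protein neuroligin 1, and 0 in Pkhd1 and Skint5. Cdh13, Nlgn1, Pkhd1 and Skint5 were picked for this contrast after their values were seen. Copy number of these loci was not measured.

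For gonadotrope genes, the shares with an unacetylated site were below and those with an acetylated region above the shares of all genes, as a description. Of 21 genes, 11 (52.4%) had a site within 50 kb against 63.3% of all genes, and 10 (47.6%) had an acetylated region within 50 kb against 22.3%. A site lay in the body of 9.52% of the genes, against 28.1% of all. The listed genes were short, with a median length of 8.04 kb against 17.1 kb over all genes. Of all genes of up to 10 kb, 2.42% had a site in the body. The part of gene length in these shares was not tested. In the bodies of the listed genes there were 12 sites per Mb, from 3 sites in 2 genes, and 40.1 acetylated regions per Mb. All genes had 23.6 and 3.19, and genes of up to 10 kb had 6.26 and 1.75. Fshb had 2 unacetylated sites and 0 acetylated regions within 50 kb. The stronger, chr2:107076344-107077285, lay 17.2 kb upstream of the start and 4.89 kb from H3K27ac, with folds of 20.1 and 12.4 in vehicle and 24 and 16.9 in activin, which overlap. Gnrhr, the receptor of gonadotropin-releasing hormone, had 6 sites and 2 acetylated regions. The strongest of these sites was intronic, and its nearest annotated start was that of Uba6, 24.6 kb away. It had folds of 26.4 and 24.6 in vehicle and 23 and 18.8 in activin, which do not overlap. Cga, the gene of the common alpha subunit, had 3 and 6. Isl1, a LIM homeobox factor, had 10 and 8. Nr0b1, which encodes the orphan nuclear receptor DAX1, had 5 and 0, with folds of 22 and 17.1 in vehicle and 33.9 and 32 in activin at its strongest site, 15.8 kb from the start, where the groups did not overlap. Lhx4, another LIM homeobox factor, had 6 and 0, and Gata2 2 and 0. The strongest site of Gata2 had folds of 16.4 and 14.4 in vehicle and 8.06 and 10.6 in activin. The direction at these sites within 50 kb of Gnrhr and Gata2 was thus opposite to that near Nr0b1. Over all constant regions, both activin ranks were above both vehicle ranks at 26.1% and below both at 33.1%. Nr5a1, the gene of the nuclear receptor SF-1, had 3 and 1. Neither Foxl2 itself, Lhb, Lhx3 nor Pitx1 had an unacetylated site within 50 kb.

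Genes of other pituitary lineages had unacetylated sites near the share of all genes and few acetylated constant FOXL2 regions. Of 17 genes 12 (70.6%, against 63.3% of all genes) had a site within 50 kb, and 1 (5.88%, against 22.3%) had an acetylated region there, Neurod1, a corticotrope bHLH factor, with 9 beside 6 sites. Prl, the prolactin gene, had 9 sites and 0 acetylated regions. These counts leave out H3K27ac peaks away from constant FOXL2 regions, and the nearest H3K27ac peak was 45 kb from the strongest site of Prl, 17.1 kb from that of Pomc, 28.1 kb from that of Trhr and 2.96 kb from that of Neurod1. The strongest site of Prl, chr13:27043260-27043716, 14.1 kb upstream of the start, had folds of 25.2 and 22 in vehicle and 17.8 and 18.6 in activin. Pomc, the precursor of ACTH, had 6 and 0, with 29.9 and 31.9 in vehicle and 23.4 and 23.1 in activin at chr12:3963458-3963882, 8.71 kb downstream of the start. Trhr, the receptor of thyrotropin-releasing hormone, had 4 and 0, with 24.7 and 24.9 in vehicle and 21.7 and 20.7 in activin. At the strongest site of each of Prl, Pomc and Trhr both vehicle folds were above both activin folds, and so were the ranks, as at 33.1% of all constant regions. These 4 genes have the most sites as nearest start in the list. Tbx19, Sox2, Tshb, Gh and Pou1f1 had 0 sites within 50 kb.

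Genes of the ovary, where FOXL2 maintains granulosa cells, and of the testis were also listed. Over all genes, 63.3% had a site within 50 kb and 22.3% an acetylated region. Of 22 granulosa and ovary genes, 16 (72.7%) had a site within 50 kb and 7 (31.8%) an acetylated region. Their bodies held 9.81 sites per Mb against 23.6 over all genes. Star, which encodes the cholesterol transporter of steroid synthesis, had 8 and 0, but was the nearest annotated start of only 1 site. The strongest site within 50 kb of Star was nearest to the start of Gm17484. It had folds of 30.4 and 21.4 in vehicle and 25.8 and 22.1 in activin. Kitl, the KIT ligand, had 3 and 6, Gja1, the gap junction protein connexin 43, 3 and 1, and Fshr, the FSH receptor, 1 and 0. Rspo1, an activator of WNT signalling picked out after its values were seen, had 1 site, chr4:125010310-125010974, 3.12 kb from the start, with 49.2 and 56.4 in vehicle and 34.7 and 37.7 in activin. Cyp19a1, the aromatase gene, and Amh had 0 sites. Of 14 Sertoli and testis genes, 7 (50%) had a site and 1 (7.14%) an acetylated region, with 7.83 sites per Mb of body. Cyp26b1, which encodes an enzyme that degrades retinoic acid, had 5 sites, with 24.5 and 21.1 in vehicle and 40.3 and 21 in activin at the strongest, Hsd17b3, an enzyme of testosterone synthesis, had 3 and Cldn11, a claudin of tight junctions, 2. Sox9, a testis factor that FOXL2 opposes in the ovary, was picked out after its value was seen and had 0.

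Among the other lists, 15 of 26 forkhead genes (57.7%) had a site within 50 kb, where the share over all genes was 63.3%. They were led in sites as nearest start by Foxp2 (16), Foxp1 (6), Foxo3 (6) and Foxn3 (2). Of 15 housekeeping genes 14 (93.3%) had one, and Hprt, an enzyme of purine salvage, held 6 in its body. Ywhaz, a 14-3-3 protein, held 2, and Ppia, cyclophilin A, and Pgk1, an enzyme of glycolysis, had 4 each within 50 kb. Families of genes that are silent in most tissues had fewer: 427 of 1498 chemosensory receptor genes (28.5%) and 7 of 53 keratin genes (13.2%) had a site within 50 kb. Tas2r118 (7), Tas2r134 (8), Olfr1167 (5) and Olfr686 (5) led the first, and Krt27, Krt10, Krt222 and Krt25, which neighbour each other, had 1 each. These genes are short and stand in clusters, so that neighbours share sites, and a share over them is a description.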

How the data were processed

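Per the submitters' processing notes, the processing used Bowtie2, MACS2, HOMER and the build GRCm38 (mm10); versions, settings and the use of the control are not given in the sources used here. Each of 12 libraries has a list of peaks and a table of their annotation, deposited by the authors. Each list gives, per the file headers or format, a −log10 p-value and −log10 q-value, a fold enrichment (a ratio) and a display score per peak. The lists hold no reads, so depth is unknown, and peak numbers are given instead. No batch is named in the labels.

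The members and gene lists were chosen with earlier results of these data known. Regions were merged at 1 bp and ranked per library by −log10 q among regions with a peak in all 4 FLAG lists (Python 3.11.15, pandas 2.3.3, numpy 2.4.6, scipy 1.17.1, matplotlib 3.10.9). Median values per library were compared between classes with an exact sign-flip test over 4 libraries (smallest p 0.13). Treatments were compared with an exact permutation test over 6 labellings (smallest p 0.33). Benjamini-Hochberg adjustment covered the 24 class contrasts only. Both tests were checked for their smallest p on made-up numbers. Simulated data were used only to check the call of regions ranked higher in both activin libraries. Shares have 95% Wilson intervals for counting error. A single p for each region was not computed, since regions are not replicates. Gene positions and promoter sequences are RefSeq's, build GRCm38.p6. Of 6185 protein-coding genes matched between the tables, 100% lay on the same chromosome and 57.8% had starts within 100 bp of each other. No genome was used, so sequence was read only in promoter windows. Same-numbered libraries were compared as pairs in an alternative; their deviations from the group means correlated at 0.134, and the labels do not say what a number marks.

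Named in the text are the 6 sites with the highest mean rank, the 3 with the largest rise and the 3 with the largest fall with activin, the 2 densest windows of 100 kb, the 15 protein-coding genes nearest to the most sites, the 4 genes with the most sites of each of 9 lists and the cell type markers; others are marked as picked after their values were seen. One site with a large rise and one gene are not reported here. Alternatives were another distal limit, padded, stricter or both-library H3K27ac peaks, stricter FOXL2 peaks, other rankings, single-peak regions, the replicate block and leaving out each library.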

Additional observations from a re-analysis of the deposited data

Results flagged for a closer look

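With activin, the median FOXL2 rank of the unacetylated sites was higher in both pairs of same-numbered libraries, by 0.58 and 1.78 rank points, and that of constant distal regions acetylated in all 4 H3K27ac libraries was lower in both, with differences of -8.22 and -11.7. The opposite directions of these class medians drew attention. The median shift of single regions was negative in both classes, -1.07 at the unacetylated sites and -7.28 at the acetylated regions. The difference of the shifts was 11.1 rank points, with an exact permutation p of 0.33, the smallest that 2 libraries against 2 can give. The shift of the unacetylated sites alone was within the spread between libraries.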

How the results depend on the processing

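Of 280 alternative values over 23 settings, 4 changed sign, 63 values without a test left their interval, and 213 did neither. For tested differences this looks at direction only, and sizes varied: the rank difference to SMAD2/3 regions was -34.2 to -22.2, that to promoter regions 0.581 to 11, and the difference in distance to a start 5713 to 9599 bp. With H3K27ac peaks of −log10 q of at least 5 only, the rank difference between unacetylated and acetylated sites was 4.03, the width difference 4.88 bp and the intronic difference 1.98 percentage points, each turned in sign; ranking by fold gave a rank difference of 9.62. The cause was not tested. The number of sites stayed between 29381 and 46119. The unacetylated share of constant distal regions was 66.8% with a distal limit of 2500 bp for the sites. The regions they were divided by kept the limit of 1000 bp, so this share could only fall. The share was 64.5% and 52% without H3K27ac within 1000 and 5000 bp. It was 74.3% with H3K27ac in both libraries of a treatment and 80% with the stricter H3K27ac peaks. With FOXL2 peaks of −log10 q of at least 5 it was 68.9%, and with a single peak per library 71.1%. In the same order the median gap was 18266, 19402, 24469, 16132, 14566, 20136 and 19236 bp. The distance to H3K27ac was 15196, 17254, 24397, 20506 and 28976 bp for the first 5 of these, by construction of the padded and reduced peak sets. The summit spread was 57 bp without H3K27ac within 5000 bp and 52 bp with stricter FOXL2 peaks. The share ranked higher with activin was 26.5% without H3K27ac within 5000 bp, 25.6% with stricter H3K27ac peaks, 25.4% by fold and 30% in the whole list. The share ranked lower was 29.9%, 32.1%, 29.9% and 25.5%, and 31.1% with H3K27ac in both libraries. In the whole list the higher share thus exceeded the lower one, unlike in the main ranking. The same shares over all constant regions were not computed for any alternative setting. Leaving out each library gave 14668 to 15934 bp to H3K27ac, gaps of 15287 to 17560 bp, summit spreads of 41 to 56 bp, unacetylated shares of 69.9 to 72.3%, and 25.7 to 39.9% higher and 30.4 to 43.6% lower with activin. The largest of these come from leaving out a FLAG library, where a site has fewer ranks to clear; without vehicle 1 they were 39.9% higher and 43.6% lower. The activin difference was 0.171 without FLAG vehicle 2 and 2.11 without FLAG vehicle 1. With the replicate block, pairing libraries by number, it was 1.18 with an exact p of 0.5, the smallest that 2 pairs allow. Depth is unknown, so a site without an H3K27ac peak may hold acetylation below the authors' threshold.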
